A study of Mus musculus with 8 samples.

Results

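The RNA described here came from stretches of the mouse genome that belong to 2 or more genes at once. The count files gave such reads rows of their own, each marked as ambiguous and naming the genes it could not be divided between. All rows so marked were taken, without regard to their level: 927 of 28638 rows, beside 27710 rows of single genes and 1 row for reads outside any annotated feature. Of the 927 rows, 893 named 2 genes, 29 named 3 and 5 named 4 or more, and 875 held a count in at least 1 library while 52 stood at 0 in every library.

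The libraries were made from lineage-depleted bone marrow cells, the fraction left when mature blood cells are removed, grown in culture with the cytokines mSCF, mTPO, mFlt3L and mIL3. One genotype was labelled WT and the other Vav-iCre+; Alkbh5fl/fl, in which Cre recombinase under the blood-wide Vav promoter deletes Alkbh5, an eraser of the RNA mark N6-methyladenosine. The labels used here give neither the age nor the sex of the animals, nor whether WT cells carried Cre. For each genotype 3 cultures had been fed the uridine analogue 4-thiouridine (s4U) at 100 µM for 2 hours and 1 was unlabelled, which makes 6 fed and 2 unlabelled libraries of total RNA. RNA of all libraries, fed or not, went through the TimeLapse chemistry, which recodes s4U so that new RNA can be told from old, and the counts used here do not separate them.

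Total counts per library ran from 10409170 to 18252607, and the ambiguous rows held 81687 to 135652 of them. Alkbh5 had 1061 to 1479 counts in the 4 WT libraries and 0 or 1 in the 4 libraries of the other genotype, so the labels match the deletion. Progenitor genes were present in every library, with Kit at 64.6 to 102 and Cd34 at 48.5 to 84.7 counts per 1000000 counts of gene rows. Other progenitor genes varied more, such as Mpo at 3236 to 7496 and Ptprc at 151 to 488. Some markers of other cell types varied widely. The stroma genes Col1a1, Col1a2 and Cdh5 stood at 5.21 to 1648 in sum and Ltf, a neutrophil granule gene, at 144 to 865. Those of T and NK cells varied little, at 29.1 to 44.8 in sum. The third fed WT library stood apart: Gm26917, a gene within ribosomal repeat sequence, took 14.2% of its gene counts, against 6.33% to 8.34% in the other 7. Fed replicates 2 of both genotypes held 17471 and 13896 counts of Xist, the RNA that silences an X chromosome in females, and 0 of the Y-linked gene Ddx3y. Fed replicates 1 and 3 held 0 to 2 counts of Xist and 200 to 552 of Ddx3y. Both unlabelled libraries held Xist (9147 and 8770 counts) together with Ddx3y (299 and 511), so feeding and the source of the cells cannot be told apart. No label says that the replicates came from separate animals, and p-values below measure the spread between these libraries.

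Counting programs assign a read to a gene by the exons it touches. A read that lies wholly in exons shared by 2 genes on its strand is set aside. The sources used here do not say whether a read that reaches past the shared bases was also set aside. Overlaps of exons are of several kinds. Many small nucleolar RNAs (snoRNAs), which guide methylation or pseudouridylation of ribosomal RNA, are cut out of introns of host genes, often genes of the translation machinery, and an annotated transcript that keeps the intron makes host and snoRNA overlap. Readthrough genes are a second kind: transcripts that run from one gene into its neighbour are annotated as a gene of their own, which shares exons with both. Other genes simply lie inside, or start within, a neighbour.

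The small RNAs below are shown because each lies whole inside an exon of its host. A read that lies wholly within the small RNA thus cannot be told from a read of the host transcript. Sequences were read from GENCODE M21 transcripts on build GRCm38. Capitals mark TGATGA (a letter match to the C box) where it starts within 20 bases of the 5′ end, CTGA (a match to the D box) where it starts within 20 bases of the 3′ end, and ACA where it stands 3 bases from the 3′ end, as in H/ACA snoRNAs. Only the strand of the RNA was searched. Of 1507 annotated mouse snoRNA transcripts, 21.8% held TGATGA, 33.9% CTGA and 18.3% ACA at these places, and 20.5% held both TGATGA and CTGA.
Snord21 in Rpl5: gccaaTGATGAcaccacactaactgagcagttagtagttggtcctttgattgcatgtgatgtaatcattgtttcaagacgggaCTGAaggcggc
Snord47 in Gas5: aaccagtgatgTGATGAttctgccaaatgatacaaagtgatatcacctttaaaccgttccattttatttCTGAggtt
Gm22357 in Gas5: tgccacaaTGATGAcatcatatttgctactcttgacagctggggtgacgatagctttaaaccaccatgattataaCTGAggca
Snord22 in Snhg1: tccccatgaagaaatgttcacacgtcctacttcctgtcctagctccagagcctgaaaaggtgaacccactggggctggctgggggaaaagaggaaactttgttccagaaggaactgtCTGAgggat
Gm22988 in Eif4a1: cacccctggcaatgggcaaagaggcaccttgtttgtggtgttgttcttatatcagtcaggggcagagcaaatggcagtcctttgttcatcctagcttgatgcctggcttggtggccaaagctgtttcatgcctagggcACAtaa

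Snord21 lies at chr5:107904555-107904648 on the plus strand, Snord47 at chr1:161038082-161038158 and Gm22357 at chr1:161036057-161036139, both plus, Snord22 at chr19:8725866-8725991, plus, and Gm22988 at chr11:69669635-69669778 on the minus strand. Snord21, Snord47 and Gm22357 held both C and D box letters, Snord22 only CTGA and Gm22988 only ACA.

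Coding sequence of Itgam and of Hist2h2aa1 is shown for 2 rows that recur in the results, each a stretch that lies in exons of both genes of the row. Gm20634 is annotated as non-coding. Capitals mark a start codon.
Gm49368 and Itgam: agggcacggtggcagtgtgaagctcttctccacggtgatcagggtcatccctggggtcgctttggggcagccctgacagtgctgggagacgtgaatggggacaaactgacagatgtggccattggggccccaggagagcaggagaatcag
Hist2h2aa1 and Gm20634: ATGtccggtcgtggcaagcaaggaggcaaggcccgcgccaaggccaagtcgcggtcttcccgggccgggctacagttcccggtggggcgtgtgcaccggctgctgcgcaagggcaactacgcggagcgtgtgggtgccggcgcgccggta

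These stretches lie at chr7:128101637-128101786 and chr3:96245581-96245730, both on the plus strand. The histone stretch begins with the start codon of Hist2h2aa1, and a read there cannot be assigned to 1 of the genes.

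Nearly all rows joined genes that share exons on the same strand. Of 813 rows of 2 genes that could be placed in the annotation, 808 (99.4%) named genes with overlapping exons on one strand, and 5 named genes without shared exon bases, 1 of them, with 1 count, a pair on opposite strands. Read from the annotation's side, 166 pairs of expressed genes (at least 100 counts each) shared exons on the same strand, and 118 of them had an ambiguous row. By contrast 0 of 1014 expressed pairs on opposite strands had one. The shared stretch had a median of 350.5 bases (quartiles 145 and 870), and in 524 rows it held coding bases of one of the genes. In 206 rows all exon bases of one gene lay within the exons of the other.

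Readthrough genes accounted for much of the class of coding pairs. In 370 rows, with 47.6% of all ambiguous counts, at least 1 gene had only transcripts that carry the annotation's readthrough tag. Among the 444 rows that named 2 or more coding genes, 294 held such a gene, with 79.8% of the counts of the class. The 213 readthrough genes named had 7470 counts of their own in all 8 libraries, against 424562 in ambiguous rows. In 173 of 197 rows where both genes had an own row, the readthrough gene had the fewer own counts. Of 1556 genes named, 300 stood in 2 or more rows and 382 had no row of their own in the files.

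Rows with 2 or more coding genes took 52.7% of the ambiguous counts, and the 209 rows with a small RNA gene 32.0%, most of it from a single row. The 172 rows of a coding and a non-coding gene held 7.09%, the 30 rows of non-coding genes 0.316%, and 72 rows with a gene missing from the annotation 7.92%. The counts were concentrated: 1 row held 27.8%, 2 rows 40.5%, 20 rows 61.5% and 100 rows 87.3%. Rows with a mean of at least 1 count per 1000000 counts of all rows (CPM) numbered 328, and 6 exceeded 100 CPM.

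**Figure D1:**
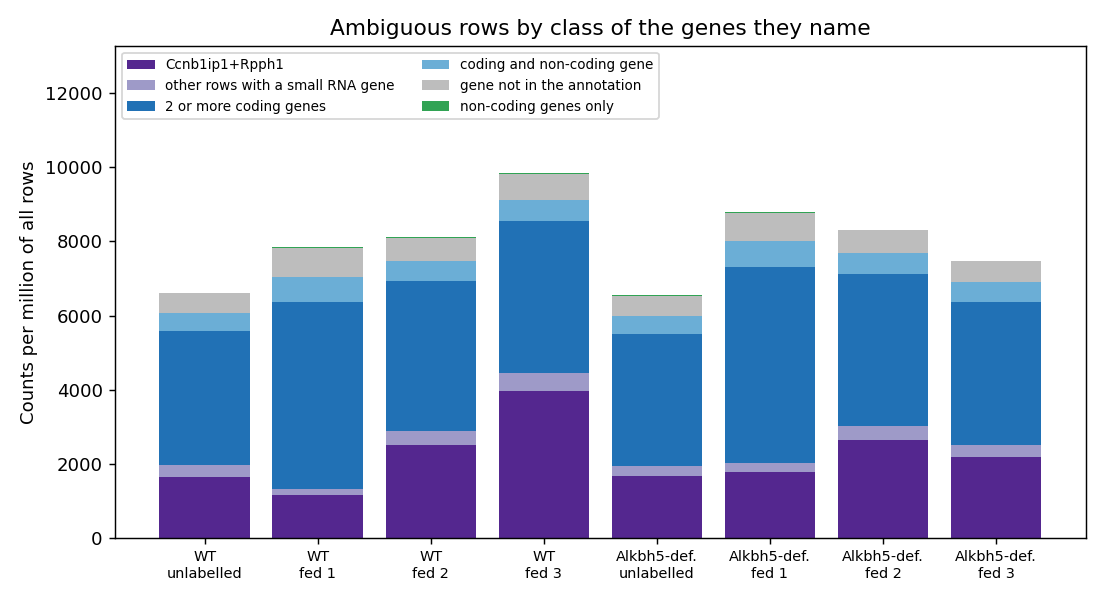
Stacked bars give CPM of all rows for each class of ambiguous row (y axis) in each of the 8 libraries (x axis). The dark segment, Ccnb1ip1+Rpph1, runs from 1161 in the first fed WT library to 3971 in the third, while rows of coding genes lie between 3577 and 5287.

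The most abundant row was Ccnb1ip1+Rpph1. Rpph1 is the RNA subunit of RNase P, the ribozyme that trims the 5′ ends of transfer RNA precursors, and Ccnb1ip1 encodes a ubiquitin ligase known for its role in meiotic crossing over. Rpph1 (chr14:50807449-50807767, minus strand) overlaps the first exon, an untranslated one, of a Ccnb1ip1 transcript over 233 bases (chr14:50807500-50807732). The bases of Rpph1 outside that exon are few, and they are shown because they alone belong to Rpph1 and not to the shared stretch:
Rpph1 start: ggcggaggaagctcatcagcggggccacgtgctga
Rpph1 end: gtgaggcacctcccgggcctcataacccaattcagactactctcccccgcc

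The first of these has 35 bases (chr14:50807733-50807767) and the last 51 (chr14:50807449-50807499). The row stood at 1637 CPM in the unlabelled WT library and at 1161, 2495 and 3971 CPM in the 3 fed WT libraries. In Alkbh5-deficient cells it stood at 1658 CPM unlabelled and at 1787, 2632 and 2190 CPM fed. The fed groups overlapped, with means of 2542 ± 1405 CPM (WT) and 2203 ± 423 CPM (Alkbh5-deficient; SD, n = 3 each), and the first replicate was the lowest in both genotypes. Rpph1 had 162956 counts in its own row and 248030 in the shared row, so that 57.1% to 62.9% of the pair's counts were ambiguous in each library. Ccnb1ip1 had no row of its own, and its part of the shared counts could not be measured.

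The list of ribosomal protein genes owed most of its counts to 1 row. Its 42 rows include mitochondrial ribosomal proteins and kinase genes matched by name, such as Rps6ka4 and Rps6ka5. They took 16.2% of the ambiguous counts, and 113081 of their 144257 counts were those of Rpl13a+Gm45713. That row, which covers 621 shared exon bases, stood without feeding at 721 CPM in WT and at 705 CPM in cells of the other genotype. With feeding it stood at 1233, 972 and 1268 CPM in WT and at 1388, 1085 and 871 CPM in Alkbh5-deficient cells, all above both unlabelled values. Rpl13a, a protein of the large ribosomal subunit, had 11456 counts of its own against 113081 shared, and Gm45713 had 0, so 90.8% of the pair's counts were ambiguous. Its gene row alone thus gave a small part of the reads that could come from Rpl13a.

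Rps10+Gm49804 ran from 69.6 to 140 CPM, Rpl24+Gm28037 from 54.0 to 119 CPM and Gm49383+Rpl36al from 47.4 to 78.0 CPM. In each of these 3 rows the 2 highest values were those of replicate 1, the reverse of its place for Ccnb1ip1+Rpph1. Reads outside features, which CPM of all rows includes, were fewest in the first fed replicates (38.3% and 37.6%). Rows of 2 or more coding genes were also highest there in sum, at 5045 and 5287 CPM against 3860 to 4109 CPM in fed replicates 2 and 3. This place of replicate 1 is therefore not particular to ribosomal protein rows. The ambiguous share of these 3 pairs, pooled over libraries, lay between 69.9% for Rps10 and 77.1% for Rpl24. Ribosomal protein genes have many processed pseudogenes, and reads that match those as well are uncertain in any row.

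**Figure D2:**
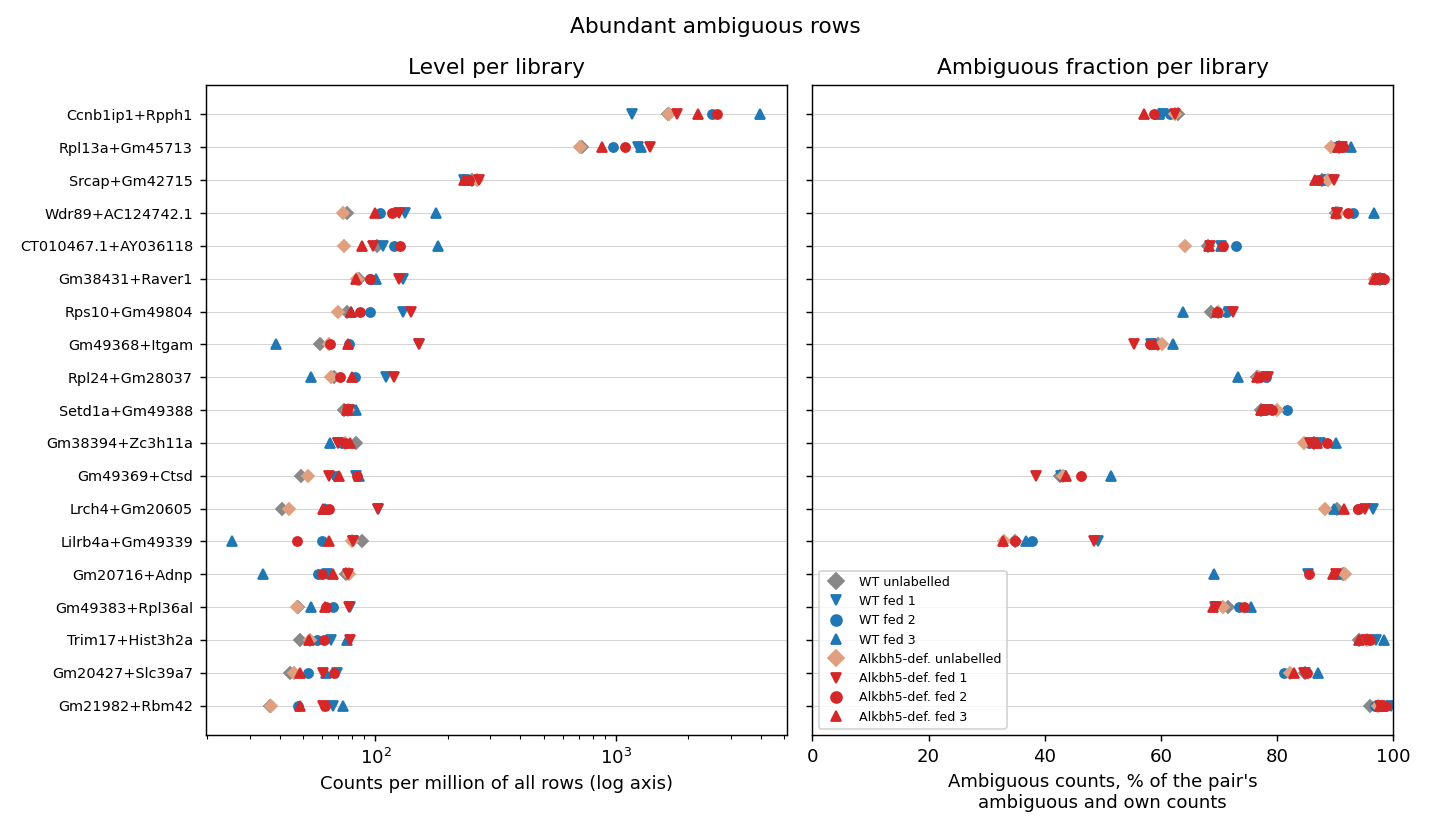
Left, CPM of all rows (log x axis); right, ambiguous counts as a percentage of the ambiguous and own counts of the genes in the row; one line for each of 19 of the 20 most abundant rows and one symbol for each library. Ccnb1ip1+Rpph1 and Rpl13a+Gm45713 stand above all other rows in every library, and the ambiguous fraction lies over 80% in all libraries for rows such as Srcap+Gm42715 and Gm38431+Raver1.

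Srcap+Gm42715, the third most abundant row, differed little between libraries in CPM of all rows. That scale includes the reads outside features, which took 37.6% to 52.1% of all counts. Evenness in CPM of all rows, here and for the rows that follow, need not hold for CPM of gene rows. It holds Srcap, the ATPase that deposits the histone variant H2A.Z, and its genes share 9738 exon bases. The row stood at 252, 234, 235 and 244 CPM in the unlabelled and fed WT libraries and at 265, 269, 246 and 234 CPM in the Alkbh5-deficient ones. Setd1a+Gm49388, with a histone H3 lysine 4 methyltransferase, kept within 74.2 to 82.6 CPM. Gm38394+Zc3h11a, with a zinc finger protein of mRNA export, lay between 64.5 and 82.7 CPM, and Gm38431+Raver1, with a splicing cofactor, between 83.3 and 130 CPM. Gm20716+Adnp, with a chromatin remodelling factor, ran from 34.0 CPM in the third fed WT library to 77.5 CPM. The ambiguous fraction was 88.0% for Srcap, 78.8% for Setd1a, 97.4% for Raver1 and 88.2% for Adnp.

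The other rows among the 20 most abundant were of mixed function. Wdr89+AC124742.1 ran from 73.6 to 179 CPM. Lrch4+Gm20605, with a leucine-rich repeat protein, stood at 40.8 and 43.6 CPM unlabelled and at 60.7 to 103 CPM fed. Gm20427+Slc39a7, with a zinc transporter of the secretory pathway, ran from 44.1 to 69.2 CPM, and Gm21982+Rbm42, with an RNA-binding protein, from 36.3 to 73.0 CPM. CT010467.1+AY036118, a ribosomal RNA gene and a non-coding gene inside it on chromosome 17, ran from 73.6 to 181 CPM, highest in the third fed WT library, the one with the most Gm26917. Trim17+Hist3h2a, a histone H2A gene and a ubiquitin ligase gene annotated from the same first base, ran from 48.7 to 78.1 CPM, and 95.7% of its counts were ambiguous.

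Some of the named rows held genes known from myeloid cells, which were put together here after their values were seen. Itgam encodes CD11b, the integrin chain that marks neutrophils and macrophages. Gm49368+Itgam stood at 58.5 and 64.2 CPM unlabelled, at 152, 77.8 and 38.7 CPM in fed WT and at 152, 64.6 and 77.1 CPM in fed Alkbh5-deficient cells. Replicate 1 was highest in both genotypes and the third WT replicate lowest, and the fed groups overlapped. Lilrb4a+Gm49339, with an inhibitory receptor of myeloid cells, ran from 25.4 CPM in the third fed WT library to 87.9 CPM in the unlabelled WT library. Evi2+Evi2b, a pair within an intron of Nf1 that includes a membrane protein of blood cells, ran from 13.8 CPM in the same WT library to 93.9 CPM. Gm49369+Ctsd, with the lysosomal protease cathepsin D, showed another order, from 48.9 CPM in the unlabelled WT library to 85.7 CPM in the third fed WT library. Marker genes of mature neutrophils summed to 250 to 1152 counts per 1000000 counts of gene rows across the libraries and those of monocytes and macrophages to 303 to 700, and their part in these rows was not tested. In these bulk samples fewer cells of a type and less RNA per cell cannot be told apart.

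The size of the shared row against the own rows differed between these pairs. The ambiguous fraction was 58.4% for Itgam, 43.9% for Ctsd and 37.1% for Lilrb4a, where it ran from 32.7% to 49.1% between libraries with both first fed replicates at the top. For Evi2+Evi2b it was 93.6%. Of the lineage markers checked, 1 gene stood in ambiguous rows, Gp1bb, a platelet glycoprotein. Sept5+Gp1bb had 11 to 50 counts per library, 0.944 to 2.99 CPM, while the own row of Gp1bb held 0 to 0.158 CPM of gene rows.

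For the genes named in ambiguous rows, the ambiguous share of own and shared counts varied from none to all. Each shared row was counted in full for every gene it names, so the share is an upper bound on what a gene lost. Among 565 of these genes with a row of their own and at least 1000 counts in own and shared rows together, the median share was 8.10%. For 292 genes it was under 10%, for 178 over 50% and for 96 over 90%. The last group held readthrough genes such as Gm45713, with 0 own counts, and their part of the shared reads could not be measured. Among rows of at least 5 CPM the highest fraction was that of Qser1+BX908741.1, at 100% because neither gene had a row of its own, followed by Gm42742+Pagr1a at 99.5% and Zbtb9+Gm50253 at 97.8%. The lowest were Snord21+Rpl5 at 0.906%, Snord15b+Rps3 at 1.12%, Gm42820+Notch2 at 1.98%, Rpl32+Snora7a at 2.85% and AC099699.1+Chd2 at 3.36%. For Snord21+Rpl5 the shared stretch is the 94 bases of Snord21 printed above.

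Genes of energy metabolism, the theme of the series title, were looked up in the ambiguous rows by the start of their symbols. The list of respiratory chain and citric acid cycle genes had 6 of the 927 rows, with 0.180% of the ambiguous counts. The share of the list among all gene rows was not counted, so 6 rows cannot be called few or many. Genes of this theme under other symbols are not on the list, such as Etfb, with 4729 ambiguous counts against 1603 for the list. Gm21987+Cox17, with a copper chaperone of cytochrome oxidase, stood at 9.88 and 7.45 CPM unlabelled, at 7.69, 11.3 and 16.2 CPM in fed WT and at 8.06, 10.6 and 7.24 CPM in fed Alkbh5-deficient cells. Gm20498+Cox16, with an assembly factor of the same enzyme, stood between 1.12 and 3.75 CPM, and Gm49356+Ndufb9, a complex I subunit, between 0.686 and 1.12 CPM. These shared rows were 25.2%, 42.3% and 2.52% of their pairs' counts. No ambiguous row named Alkbh5 or Ogdh.

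The list of RNA methylation genes had 6 rows, with 0.275% of the ambiguous counts. Its genes were matched by the start of the symbol, so a member such as Mettl23 need not act on RNA. Genes under other symbols are not on it, such as Cmtr1, with 7311 ambiguous counts against 2447 for the list. Ythdc1 encodes the nuclear reader of N6-methyladenosine, and Ythdc1+Gm43055 stood at 23.3 and 24.7 CPM unlabelled, at 17.3, 23.7 and 15.0 CPM in fed WT and at 17.4, 19.6 and 21.4 CPM in fed Alkbh5-deficient cells. The fed groups overlapped and both unlabelled values were among the 3 highest. The shared row was 15.7% of the pair's counts. Gm27027+Alkbh3, with a demethylase of the Alkbh family, had 0 to 1.56 CPM, and Mettl23+Mfsd11 at most 0.120 CPM.

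Rows of small RNA genes other than Rpph1 were many and low, between 161 and 488 CPM per library in sum over 208 rows. Of 179 rows with 1 small RNA gene and 1 host, 110 held a snoRNA or a small Cajal body RNA. The host was a protein-coding gene in 75 of these, and in 54 of the 75 the only host transcripts covering the small RNA were of the retained-intron type. Snord22+Snhg1 was the highest snoRNA row. Snhg1 is a non-coding gene whose introns carry a series of snoRNAs, and 7 of its partners had an ambiguous row. Gas5, another such host, had 8 rows, and Taf1d, a coding gene, also 8.

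Most small RNA rows with enough counts to be tested, 34 of 42 (81.0%), had the first replicates of both genotypes as the 2 lowest of the 6 fed libraries, against 20.5% of all rows tested. Levels for this count were CPM of gene rows scaled by the trimmed mean of M-values (TMM). Snord22+Snhg1 had 468 counts in the unlabelled WT library, 28, 710 and 811 in the fed WT ones, 472 in the unlabelled Alkbh5-deficient library and 84, 576 and 481 in the fed ones. Snord21+Rpl5 had 121, 9, 137 and 106 counts in WT and 117, 11, 129 and 93 in Alkbh5-deficient cells, in the same order. Gas5+Snord47 had 1 count in each first fed replicate and 36 to 49 in the other 6 libraries. The unlabelled libraries sided with fed replicates 2 and 3 in all 3 rows.

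Gm22988+Eif4a1, in a host that encodes a helicase of translation initiation, had 37 and 124 counts in the first fed replicates, below its 345 to 618 elsewhere. For Gm22357+Gas5 the gap was smaller, with 12.0 and 17.3 TMM-scaled CPM in the first fed replicates against 21.1 to 26.2 in the other fed libraries. On that scale Scarna10+Gm28967+Ncapd2 stood at 11.4 in the first fed WT library and 32.8 in the first fed Alkbh5-deficient one, against 43.2 to 53.9. Terc, the RNA template of telomerase, shared a row with AC121792.1 that stood at 6.98 and 8.74 in the first fed replicates and at 10.6 to 25.2 in the other fed libraries. Its unlabelled libraries were lower than all fed ones in CPM of all rows, at 3.31 and 3.18 against 4.13 to 11.8.

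In 8 of the 42 rows the first fed replicates were not the 2 lowest. Among these was Snord15b+Rps3, at 0 TMM-scaled CPM in the first fed WT library and at 13.8 in the first fed Alkbh5-deficient one, against 6.49 to 22.4 in the other fed libraries. Phb2+Gm23547 had a log2 ratio of replicate 1 to replicates 2 and 3 of -0.09, and both rows were singled out after their values were seen. The first fed replicates were the 2 highest in 0 of 42, against 21% of all rows. The median log2 ratio of replicate 1 to replicates 2 and 3, with 0.1 added to both levels, was -1.51 for small RNA rows and -0.04 for rows of coding genes. The same 2 libraries had the smallest share of reads outside annotated features, 38.3% and 37.6% of all counts, and the remaining 6 libraries 48.9% to 52.1%. The part this plays in the small RNA rows was not tested. Rows naming a microRNA gene were low, as with Mir191+4833445I07Rik, which had 6 counts in the third fed Alkbh5-deficient library.

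**Figure D3:**
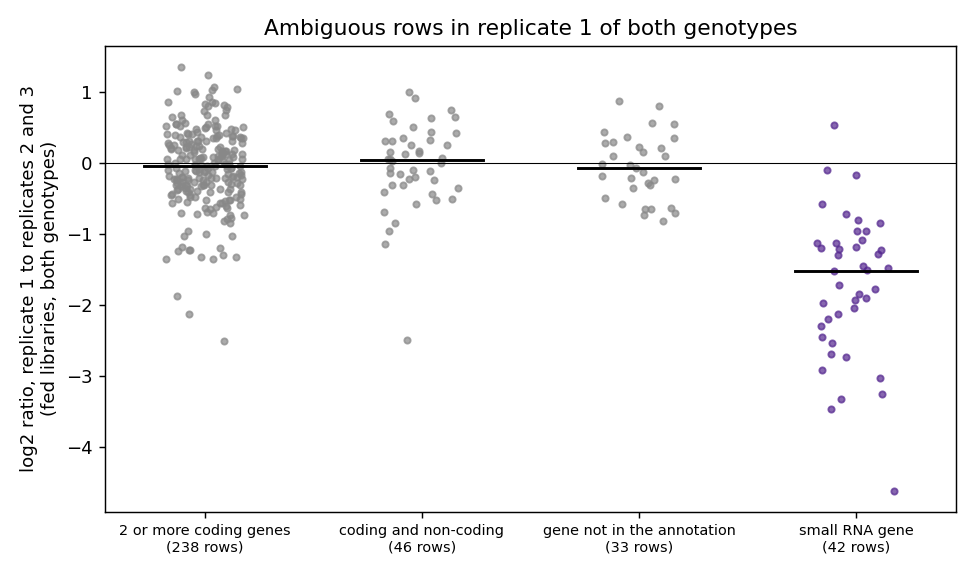
Each point is an ambiguous row, and the y axis gives the log2 ratio of replicate 1 to replicates 2 and 3 among the fed libraries of both genotypes, by class of row (x axis); bars are medians and the sideways scatter has no meaning. The 42 small RNA rows centre on -1.51 and the other classes shown lie near 0.

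A few rows named whole gene clusters. The Ugt1a row names 9 genes for UDP-glucuronosyltransferases, which differ in their first exons and share the rest, and it stood at 6.96 and 6.30 CPM unlabelled. In the first fed replicates it stood at 19.0 and 24.8 CPM, and in the other 4 fed libraries at 8.58 to 10.0 CPM. The protocadherin gamma cluster, built in the same way, had rows of more than 20 genes, and the rows naming Pcdhga4 summed to 185 counts over all libraries. Among rows naming a gene with a Zfp symbol (zinc finger proteins) the most abundant was Zfp729b+Gm49345, at 1.38 to 4.32 CPM. Rows of immunoglobulin or T cell receptor segments were 3, led by Igkv2-137+Gm42889 at 0.254 to 3.53 CPM.

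The share of all counts that was ambiguous was higher in every fed library than in either unlabelled one. It was 0.662% in the unlabelled WT library (exact 95% binomial interval 0.658% to 0.666%, for counting error only) and 0.654% in the unlabelled Alkbh5-deficient one (0.651% to 0.658%). The fed WT libraries stood at 0.785%, 0.811% and 0.984% and the fed Alkbh5-deficient ones at 0.880%, 0.832% and 0.748%. The mean over 6 fed libraries was 0.840% ± 0.083 (SD), which is 0.182 percentage points above the mean of 0.658% in the 2 unlabelled ones. A two-sided exact permutation test gave p = 0.0714, the smallest that 6 libraries against 2 allow. Of gene and ambiguous counts alone, leaving out reads outside features, the share was 1.56% ± 0.23 fed (SD, n = 6) against 1.37% unlabelled, the groups overlapped, and the exact permutation p was 0.286.

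The outcome differed with the denominator and with the Rpph1 row left in or out, and the cause was not tested. Without Ccnb1ip1+Rpph1, the ambiguous share of gene and ambiguous counts was 1.12% ± 0.036 in the fed libraries (SD, n = 6) and 1.03% in the unlabelled ones, again with no overlap (exact permutation p = 0.0714). This last comparison was added after the values were known. Rows of 2 or more coding genes stood at 7766 to 8473 CPM of gene and ambiguous rows in the fed libraries and at 7481 and 7475 in the unlabelled ones. Rows of a coding and a non-coding gene stood at 1099 ± 17 CPM on that scale when fed (SD, n = 6) and at 976 and 987 unlabelled. Small RNA rows without Ccnb1ip1+Rpph1 overlapped, at 260 to 966 CPM fed and 697 and 584 unlabelled. Over 14 such class comparisons the adjusted exact permutation p was 0.125 for each class that did not overlap.

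The share did not separate the genotypes. It was 0.860% ± 0.108 in fed WT and 0.820% ± 0.067 in fed Alkbh5-deficient libraries (SD, n = 3 each), a difference of -0.04 percentage points, with a two-sided exact permutation p of 0.7, where 0.1 is the smallest p that 3 against 3 can give. Without the third fed WT library the difference was 0.022 percentage points, with the opposite sign. Rows of coding genes stood at 4398 ± 561 CPM in fed WT and 4419 ± 762 CPM in fed Alkbh5-deficient cells, and small RNA rows at 2887 ± 1568 and 2515 ± 491 CPM (SD, n = 3 each).

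Row by row, no overlapping pair differed between fed Alkbh5-deficient and fed WT cells past the threshold. With edgeR's quasi-likelihood test over 13629 rows, of which 363 were ambiguous, 0 ambiguous rows passed an adjusted p of 0.05 (0.00734% of all rows did), 9 had an unadjusted p under 0.05 (2.48%, against 1.14% of all rows), and DESeq2 called 0 (0.0147% of all rows). Leaving out 1 fed library moved the count of 9 to 17, 14 and 3 (WT replicates 1, 2 and 3) and to 5, 5 and 0 (Alkbh5-deficient replicates 1, 2 and 3). Of the 9, 2 were higher and 7 lower, against 0.44% and 0.704% of all rows. The smallest adjusted p among ambiguous rows by edgeR was 0.999. The groups did not overlap in 6.34% of the ambiguous rows, against 5.75% of all rows, with 7 rows higher and 16 lower (2.49% and 3.27% of all rows). The log2 fold change was below 0 in 213 of 363 ambiguous rows (58.7%), against 48.5% of all rows tested, and without the third fed WT library in 48.7% of ambiguous rows.

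The rows with the smallest p and no overlap are given as values, in TMM-scaled CPM of gene rows. Gm49361+Lats2, with a kinase of the Hippo pathway, stood at 50.0, 49.0 and 45.1 in fed WT and at 67.1, 54.2 and 66.1 in fed Alkbh5-deficient cells, and its log2 fold change was 0.38 ± 0.16 (SE). The own row of Lats2 was 0.51 ± 0.19 (SE), also without overlap. Ddi2+Rsc1a1, with an aspartic protease of the ubiquitin system, stood at 42.4, 42.0 and 41.0 against 46.7, 51.6 and 53.1. Gm20716+Adnp stood at 106, 110 and 72.9 against 128, 116 and 130, while the own row of Adnp had a log2 fold change of -0.33 ± 0.37 (SE). Ormdl1+Gm28778, with a regulator of sphingolipid synthesis, and Ptrhd1+Gm29696 had log2 fold changes of 0.99 ± 0.47 and 1.31 ± 0.55 (SE) at levels under 3.

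On the other side, Gm20427+H2-Ke6, with a dehydrogenase gene of the major histocompatibility region, stood at 19.5, 17.6 and 18.2 in fed WT and at 13.0, 12.9 and 11.1 in fed Alkbh5-deficient cells, while for H2-Ke6 alone the own row gave a log2 change of 0.75 ± 0.65 (SE) and the groups overlapped. Ranbp1+Gm49776, with a cofactor of the nuclear transport protein Ran, stood at 37.2, 35.1 and 34.1 against 24.6, 28.3 and 27.4. The own row of Ranbp1 had a smaller log2 fold change, -0.06 ± 0.13 (SE), also lower without overlap. Gm49673+Rnaset2a, with a ribonuclease that has a near-identical copy, Rnaset2b, and is uncertain for that reason, stood at 13.6, 39.6 and 16.3 against 12.3, 10.7 and 8.48. Znrd2+Gm50387 and Cbx6+Npcd, the latter with a Polycomb protein, had log2 fold changes of -0.99 ± 0.36 and -0.95 ± 0.38 (SE). None of these 10 rows passed after adjustment, with edgeR adjusted p = 0.999 for each.

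The lists of ribosomal protein and small RNA genes did not lean one way between the genotypes. The 14 tested ribosomal protein rows had 6 positive and 8 negative log2 fold changes with a median of -0.02, and the 38 tested rows of small RNA genes 20 and 18 with a median of 0.02, beside a median of 0.01 over all rows. The 4 histone rows had a median of 0.07 and the 3 rows of energy metabolism a median of -0.36, and lists of so few rows cannot show whether they lean. The largest row of the energy list, Gm21987+Cox17, had -0.52 ± 0.35 (SE), with 13.0, 21.6 and 34.7 in fed WT and 13.5, 20.5 and 14.2 in fed Alkbh5-deficient cells. The own row of Cox17 had 0.04 ± 0.26 (SE). Ythdc1+Gm43055 had 0.03 and Gm49368+Itgam 0.12, both with overlapping groups. In none of these lists did a row have an edgeR p under 0.05 before adjustment.

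Feeding was compared over all 8 libraries with genotype as a term. With edgeR's quasi-likelihood test 0 of 412 tested ambiguous rows passed the threshold (0.0272% of the 14711 rows of all kinds did), the smallest adjusted p being 0.152, and 60 had an unadjusted p under 0.05. Of these 36 were higher in fed libraries and 24 lower, against 9.24% and 10.5% of all rows. Together they were 14.6% of ambiguous rows, against 19.7% of all rows, a difference that was not tested. Without the unlabelled WT library the count of 60 fell to 11 and without the unlabelled Alkbh5-deficient one to 25, while it lay between 54 and 68 without each fed library in turn. DESeq2 called 19 of the 209 ambiguous rows to which it gave an adjusted p, 16 higher and 3 lower, which is 9.09% against 6.24% of all rows (3.47% higher and 2.77% lower). The fed and unlabelled libraries did not overlap in 22.6% of the ambiguous rows and in 31.5% of all rows.

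Histone genes led the rows that were higher in fed libraries. Hist2h2aa1+Gm20634, whose shared start is printed above, stood without feeding at 39.5 TMM-scaled CPM in WT and 61.7 in Alkbh5-deficient cells. Fed, it stood at 110, 102 and 114 in WT and at 149, 97.1 and 110 in the other genotype. All 6 fed libraries lay above both unlabelled ones, and the log2 fold change was 1.19 ± 0.20 (SE), with an adjusted p of 0.152 by edgeR and 2.59821e-05 by DESeq2. The own row of Hist2h2aa1 had 1.76 ± 0.39 (SE), without overlap, and that of Gm20634 0.38 ± 0.34 (SE). The neighbouring Hist2h3c1+Gm20634, a histone H3 gene and the same readthrough gene, stood at 5.42 and 4.76 unlabelled and at 10.6 to 15.8 fed, a log2 fold change of 1.38 ± 0.25 (SE). Both rows share Gm20634 and are not independent, and the clustered histone genes have near-identical copies, so that their reads are uncertain. Of the 4 histone rows tested 3 had positive values, with a median of 0.75.

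The other 3 rows with the smallest p among those higher in fed libraries without overlap were of mixed function. Tomm6+Gm21981, with a subunit of the mitochondrial import channel, stood at 45.7 and 51.6 unlabelled and at 71.8 to 93.1 fed, a log2 fold change of 0.76 ± 0.16 (SE). Gm21969+Aldh4a1, with a mitochondrial enzyme of proline breakdown, stood at 4.65 and 5.20 against 8.46 to 12.9. Ccdc22+Gm36995, with a subunit of an endosomal sorting complex, stood at 31.2 and 40.1 against 49.1 to 69.6. For these 3 rows the own rows of Tomm6, Aldh4a1 and Ccdc22 had log2 fold changes of 0.76 ± 0.36, 0.45 ± 0.26 and 0.46 ± 0.35 (SE), each with overlapping groups. Rpl13a+Gm45713 had 0.62 ± 0.20 (SE), and 0.41 ± 0.15 (SE) in the own row of Rpl13a, neither with overlap. The 18 ribosomal protein rows tested had 8 positive and 10 negative values, with a median of -0.05 beside 0.01 over all rows. For the 49 tested rows of small RNA genes the values were 17 positive and 32 negative, with a median of -0.19. Rows of 2 or more coding genes had 155 positive and 106 negative values, with a median of 0.09. These differences between lists were not tested.

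Among rows lower in fed libraries, Rbm12+Gm28036, with an RNA-binding protein, stood at 58.7 and 55.2 unlabelled and at 25.8 to 41.3 fed, a log2 fold change of -0.76 ± 0.16 (SE). Gpbp1+Gm49496, with a promoter-binding protein, stood at 31.5 and 23.9 against 9.59 to 17.1, and its own row had -0.92 ± 0.33 (SE), also without overlap. Gm45062+Glcci1, with a gene first described as induced by glucocorticoids, stood at 36.0 and 32.5 against 8.15 to 22.3, while the own row of Glcci1 had -0.17 ± 0.39 (SE), with overlap. A pair of low rows had larger ratios from few counts. Tex30+Gm29247 had 13 and 19 counts unlabelled and 1 to 3 fed, and Gm22884+Gm12238, a small RNA gene and a gene inside it, had 19 and 22 counts unlabelled and 0 to 5 fed. All 10 rows missed the edgeR threshold, with adjusted p between 0.152 and 0.164.

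**Figure D4:**
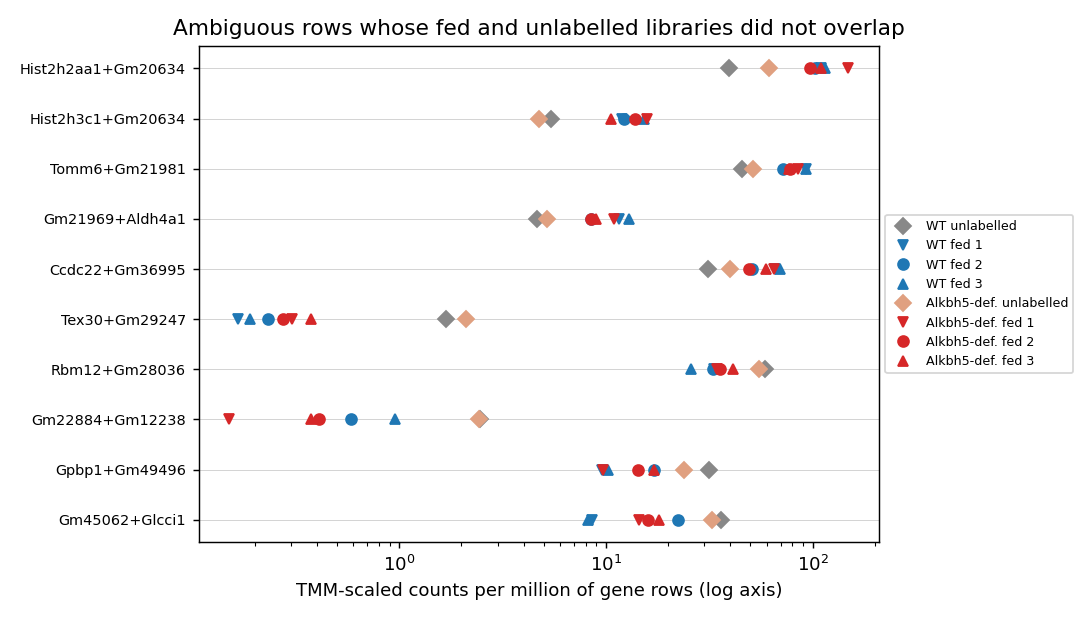
TMM-scaled CPM of gene rows (log x axis) for the 10 rows with the smallest p whose fed and unlabelled libraries did not overlap, one symbol per library; the first fed WT library of Gm22884+Gm12238, at 0, is not drawn. For Hist2h2aa1+Gm20634 the unlabelled libraries stand at 39.5 and 61.7 and the fed ones at 97.1 to 149.

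Whether feeding acted differently in the 2 genotypes was tested as an interaction. By edgeR 0 of 451 tested ambiguous rows passed the threshold (0% of all 15554 rows), 0 had an unadjusted p under 0.05 (0.167% of all rows), and DESeq2 called 0. With 1 unlabelled library per genotype, this test rests on single libraries at one end, and it does not show that the genotypes respond alike.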

How the data were processed

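Total RNA from 8 cultures was sequenced after TimeLapse chemistry with a stranded kit, per the labels' protocols. The authors deposited 1 table of raw counts per library, with rows for genes, for ambiguous sets of genes and for reads outside features, and the values are whole numbers. HISAT2, STAR, HTSeq, Picard, cutadapt and DESeq2 and the builds GRCm38 and mm10 are named in the submitters' processing notes, which give no role for any of them. The annotation release, the strand setting and the rule for partly shared reads in the counting were not given in the sources used here. The rows of reads outside features held 37.6% to 52.1% of all counts and stayed out of library sizes and tests.

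Ambiguous rows were given as counts per 1000000 counts of all rows (CPM). For tests, gene and ambiguous rows were fitted together in edgeR 4.0.16 (R 4.3.3; quasi-likelihood, TMM, filterByExpr), with library sizes and TMM factors from gene rows and Benjamini-Hochberg adjustment over all rows tested, at a threshold of 0.05. Shares were compared by exact permutation tests in scipy 1.17.1. DESeq2 1.42.0, other scalings, filters and thresholds, and each library left out were alternatives. Genes were placed with GENCODE M21 on GRCm38, in which 1497 of 1556 names were found. Functional statements are textbook background. The fits were tested on simulated counts. Libraries with the same replicate number deviated together (correlations across rows of 0.68, 0.29 and 0.19 between genotypes), but WT replicate 2 with Alkbh5-deficient replicate 3 (0.35) and WT replicate 3 with Alkbh5-deficient replicate 2 (0.36) did so more, so only replicate 1 was matched best by its own number. The labels give no pairing, and the replicate number as a block was an alternative. No 2 libraries agreed within counting noise.

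Rows named are the 20 most abundant (1 of which is not reported here), up to 3 per gene list and per class, the 5 highest and 5 lowest ambiguous fractions at a mean of at least 5 CPM, and up to 5 per direction and comparison with the smallest p among those without overlap. The rows and lists were chosen with earlier results of these data known. Lists without a row (the ribosomal repeat genes) gave no value.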

Additional observations from a re-analysis of the deposited data

How the results depend on the processing

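The ambiguous share kept its direction in all alternatives run except one: without the third fed WT library the genotype difference turned from -0.04 to 0.022 percentage points. Leaving out each fed library in turn gave genotype differences of -0.078 to 0.022 and, with the unlabelled libraries included, feeding differences of 0.153 to 0.200 percentage points. Within genotypes feeding differences were 0.198 (WT) and 0.166 (Alkbh5-deficient) percentage points, with 1 unlabelled library each. With the replicate block the genotype share difference was -0.04 percentage points (exact sign-flip permutation p = 1), and 0 rows passed in the edgeR fit, so the block changed no call. The count of ambiguous rows past the threshold for feeding was 0 by edgeR, 1 without a low-count filter (Hist2h2aa1+Gm20634, adjusted p = 0.0127) and 19 by DESeq2, and the cause was not tested. Under all other alternatives run, including a threshold of 0.1, other scalings and each library left out (0 to 0 rows), it stayed at 0, as did the counts for genotype and for the interaction under every alternative. The interaction could not be fitted without either unlabelled library. Without replicate 1 of both genotypes, an alternative added after the values were known, the counts were also 0. Of 317 values of the 20 rows named by test, 308 kept direction and side of the threshold and 9 passed it, all for feeding, 8 by DESeq2 and 1 without the filter. Rows sharing a strand and overlapping numbered 812 by gene span and 808 by exons. Rows under a few counts per library cannot be compared at this depth.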
